A study of Homo sapiens with 12 samples.

Results

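The HOX cluster genes encode homeodomain transcription factors that lie side by side in 4 clusters, HOXA, HOXB, HOXC and HOXD. Members here were the probe sets annotated to exactly 1 symbol of the form HOX, a cluster letter A to D and a number, with 1 probe set per gene. This rule gave 27 genes among the 18417 genes with such a probe set on the array, each of the 27 with 1 probe set. The HOXB cluster was covered by all 10 of its genes and the HOXD cluster by all 9, the HOXC cluster by 7 of 9, and the HOXA cluster by HOXA2 alone of 11. The other 12 genes were not analysed here, and 1 probe set carrying several HOX symbols was left out by the rule.

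Expression was measured on 12 arrays of human cell lines in a study of NF-kB subunits in Hodgkin and non-Hodgkin lymphoma. U-H01, a Hodgkin lymphoma line, and HBL-1, which models the ABC-like form of diffuse large B-cell lymphoma (DLBCL), had both been infected with hairpin RNAs against Rel-B and cRel, so that every array, controls included, comes from hairpin-carrying cells. Doxycycline switches the hairpin on in induced cells, and uninduced cells came from the same transduced population without it. The 4 groups were uninduced U-H01 (n = 4) and U-H01 labelled induced (n = 4), each from the populations B1 (replicates 1 and 2) and B2 (replicates 3 and 4) at 2 time points, and uninduced (n = 2) and induced (n = 2) HBL-1 from the single population C at 2 time points. Which of the hairpins B1, B2 and C carry is not given in the labels. Values are deposited log2 levels, so a difference of 1 is a 2-fold difference, and ± marks the SD over arrays for a level and the standard error of the fit for a difference.

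HOX proteins bind DNA together with cofactors of the TALE homeodomain class, the PBX, MEIS and PKNOX proteins, and give cells their position along the body axis during development. Within a cluster, genes at the 3′ end, with low numbers, are used early and toward the head, and those at the 5′ end, with high numbers, late and toward the tail. In blood, members of the HOXA and HOXB clusters and MEIS1 are known for their activity in stem and progenitor cells, which declines as lymphoid and myeloid cells mature. Complexes of the MLL (KMT2A) and trithorax side keep the clusters active and Polycomb complexes keep them silent.

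The arrays of U-H01 labelled induced stood apart from the uninduced ones. Over all genes, arrays of 1 group correlated at 0.991 to 0.996 and induced with uninduced HBL-1 arrays at 0.992 to 0.994, whereas U-H01 arrays labelled induced correlated with uninduced U-H01 arrays at 0.893 to 0.910 and with HBL-1 arrays at 0.905 to 0.917. An identity check found that 4 of the 8 arrays of U-H01 failed to match the rest of that line, so a difference between the U-H01 groups may be one between different cells, and induction and identity cannot be told apart here. The targeted genes did not settle the labels: RELB differed by -0.15 ± 0.09 (adjusted p = 0.209) and REL, the gene of cRel, by 0.20 ± 0.09 (adjusted p = 0.0716, limma) between the U-H01 groups. In HBL-1 the difference of REL was -0.49 ± 0.12 (adjusted p = 0.121) and that of RELB -0.19 ± 0.12 (adjusted p = 0.744). Of 7 B-cell marker genes, 5 were above the array median in each U-H01 group, BLK in the uninduced group alone and CD79A in that labelled induced alone, and 7 in each HBL-1 group, and their mean log2 level per array ran from 6.41 to 6.60 in uninduced U-H01, 8.08 to 8.45 in U-H01 labelled induced and 10.1 to 10.2 in HBL-1. Of 9 markers of Hodgkin Reed-Sternberg cells, 8 were above the median in uninduced U-H01, 5 in U-H01 labelled induced and 7 in each HBL-1 group. Between the U-H01 groups 2 of these 9 were higher in the arrays labelled induced, TRAF1 and TNFRSF8 (CD30), the latter by 4.70 ± 0.10, and 6 lower, among them CD274 (-5.79 ± 0.15) and PDCD1LG2 (-5.04 ± 0.11), while 4 of the 7 B-cell markers were higher and 1 lower. Some markers of other cells moved as well, but not whole lists in 1 direction. Of 4 pan-leukocyte genes, 3 were higher, among them CD53 (5.34 ± 0.12), and 1 lower. Of 4 endothelial genes, 1 was lower, PECAM1 (-5.60 ± 0.09), and 0 were higher. Of 5 epithelial genes, 2 were higher, among them the cadherin CDH1 (2.32 ± 0.11), and 1 lower. Of 5 markers of embryonal kidney cells, 1 was higher and 3 lower, among them the cadherin CDH2 (-2.06 ± 0.12). The part of any of these in the HOX differences was not tested. All 5 myeloid and all 4 stem and progenitor cell markers lay below the median in every group.

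The promoters of neighbouring HOXD genes are shown first because HOXD10, HOXD11 and HOXD13 carried the largest differences below, while HOXD12, which lies between HOXD11 and HOXD13, did not pass a test. Each runs from 250 bases before the start of the gene to 50 after it on the plus strand, 5′ to 3′, from RefSeq on GRCh38.p14: HOXD13 at chr2:176092471-176092770, HOXD12 at chr2:176099545-176099844, HOXD11 at chr2:176107030-176107329 and HOXD10 at chr2:176116528-176116827. Capitals mark every match, on either strand, to an NF-kB frame (GGG, any 5 bases, CC), the PBX-HOX word TGATTNAT or the MEIS word TGACAG, and overlapping matches run together.
HOXD13: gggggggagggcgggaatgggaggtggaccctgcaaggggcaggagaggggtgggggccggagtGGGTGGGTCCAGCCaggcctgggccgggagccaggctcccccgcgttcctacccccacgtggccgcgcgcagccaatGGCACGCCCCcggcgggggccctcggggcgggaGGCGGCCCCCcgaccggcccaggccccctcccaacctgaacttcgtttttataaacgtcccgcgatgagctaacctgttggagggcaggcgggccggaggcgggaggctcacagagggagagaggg
HOXD12: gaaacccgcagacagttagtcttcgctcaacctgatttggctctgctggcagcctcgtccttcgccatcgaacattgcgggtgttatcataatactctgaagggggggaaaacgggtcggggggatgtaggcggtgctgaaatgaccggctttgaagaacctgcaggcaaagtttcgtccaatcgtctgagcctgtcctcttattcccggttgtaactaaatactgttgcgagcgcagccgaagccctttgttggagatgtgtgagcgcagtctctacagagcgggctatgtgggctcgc
HOXD11: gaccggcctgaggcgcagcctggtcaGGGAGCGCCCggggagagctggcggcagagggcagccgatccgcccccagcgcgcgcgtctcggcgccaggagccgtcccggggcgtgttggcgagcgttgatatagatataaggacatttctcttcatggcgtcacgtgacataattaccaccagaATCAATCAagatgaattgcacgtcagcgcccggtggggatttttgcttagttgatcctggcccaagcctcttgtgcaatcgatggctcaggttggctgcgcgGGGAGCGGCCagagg
HOXD10: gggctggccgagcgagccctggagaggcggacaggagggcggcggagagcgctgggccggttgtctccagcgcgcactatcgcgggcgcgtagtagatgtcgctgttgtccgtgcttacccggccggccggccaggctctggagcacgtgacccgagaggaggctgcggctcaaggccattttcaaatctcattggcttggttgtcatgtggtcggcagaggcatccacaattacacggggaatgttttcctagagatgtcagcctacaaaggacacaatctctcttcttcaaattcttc

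HOXD13 held 4 matches to the NF-kB frame, some of which overlap, HOXD11 held 2 and 1 match to the PBX-HOX word, and HOXD10 and HOXD12 held none of the 3. The NF-kB frame occurs in 58.7% of the 35116 promoters of this length, the PBX-HOX word in 2.82% and the MEIS word in 15.8%. A match describes letters and not a binding site, and no match says only that these letters are not in this window. The G+C content was 74% for HOXD13, 54.3% for HOXD12, 62.3% for HOXD11 and 60% for HOXD10, against a median of 58.7% over all promoters. The number of CpG dinucleotides was 24, 19, 27 and 23 in the same order, against a median of 14. RefSeq promoters were matched for 11 of the 27 members. The window of HOXC5 starts at the same base as that of HOXC4, so its start is a shared one.

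A gene was counted as above the array median in a group when its level minus the median of all probe sets on that array was positive on average. Uninduced U-H01 had 11 of the 27 genes above the median, more than any other group: HOXB4, HOXB7, HOXB9, HOXC5, HOXC12, HOXD1, HOXD4, HOXD9, HOXD10, HOXD11 and HOXD13, each on every one of its 4 arrays. U-H01 labelled induced had 6, namely HOXB3, HOXB4, HOXC12, HOXD1, HOXD4 and HOXD9. Uninduced HBL-1 had 7, namely HOXB1, HOXB4, HOXB7, HOXC12, HOXD1, HOXD4 and HOXD9, and induced HBL-1 had these and HOXD13, 8 in all. The counts belong to groups of 4 and 2 arrays and were not tested against each other. The values carry no detection call, so a place above the median does not show that a gene is expressed. By definition, as many probe sets of an array lie above its median as below it. In every group, fewer of the 27 HOX genes lay above the line than below it. The share of all genes with a symbol above the same line was not taken for comparison. The line includes probe sets without a symbol, and all 4 counts were lower against the median of probe sets with a sole symbol, as given in the last section.

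By cluster, the HOXD genes made up most of the difference in count between uninduced U-H01 and the other groups. Of 9 HOXD genes, 6 were above the median there, against 3 in U-H01 labelled induced, 3 in uninduced and 4 in induced HBL-1. Of 10 HOXB genes, 3 were above it in uninduced U-H01, 2 in U-H01 labelled induced and 3 in each HBL-1 group. Of 7 HOXC genes, 2 were above it in uninduced U-H01 and 1 in each other group. HOXA2 was below it everywhere. In all, 5 genes were above the median in all 4 groups, 14 below it in all 4 groups and on all 12 arrays, and 8 above it in some groups only.

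Several of these placements were close to the line. HOXD13 in induced HBL-1 lay 0.011 above the median on average, with 1 of 2 arrays above it, and HOXB3 in U-H01 labelled induced 0.013 above it, with 3 of 4 arrays above. Just below the line were HOXB9 in uninduced HBL-1, at -0.032, and HOXB1 in U-H01 labelled induced, at -0.034. HOXB1, a 3′ gene known for its part in hindbrain patterning, was above the median in both HBL-1 groups by 0.065 and 0.158 only. Of the 14 genes below the median in every group, HOXB2 ranged from 3.32 to 3.75 and HOXC8 from 4.91 to 5.79 over the 12 arrays, and HOXC8 came within 0.074 of the median on 1 array of U-H01 labelled induced.

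**Figure D1:**
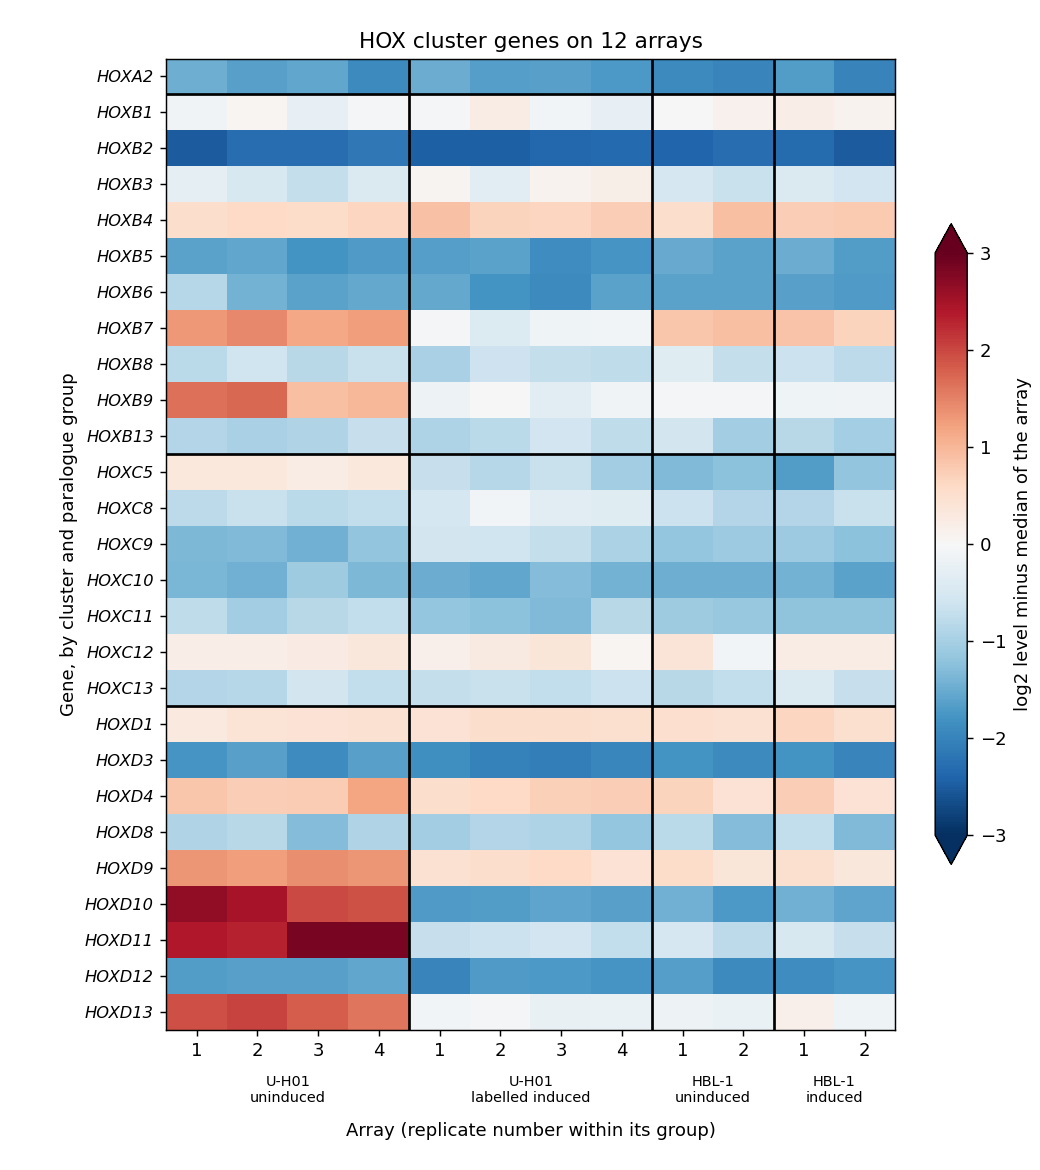
Log2 level minus the median of the same array for the 27 HOX cluster genes (rows, ordered by cluster and number) on each of the 12 arrays (columns, by group and replicate); red is above the array median and blue below. HOXD10, HOXD11 and HOXD13 are red on the 4 uninduced U-H01 arrays, HOXB4, HOXD1, HOXD4 and HOXD9 are red on all 12 arrays, and HOXB2, HOXD3 and HOXD12 are blue on all 12.

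The 5′ HOXD genes, which pattern limbs, digits and the urogenital tract in development, separated uninduced U-H01 from all other arrays. HOXD10 lay at 8.49, 8.29, 7.84 and 7.80 in uninduced U-H01 (mean 8.10 ± 0.34, n = 4), at 4.09, 4.20, 4.27 and 4.23 in U-H01 labelled induced (4.20 ± 0.07), at 4.40 and 4.11 in uninduced HBL-1 and at 4.35 and 4.26 in induced HBL-1. HOXD11 lay at 8.21, 8.14, 8.70 and 8.73 in uninduced U-H01, at 5.10, 5.22, 5.28 and 5.11 in U-H01 labelled induced, at 5.35 and 5.04 in uninduced and at 5.30 and 5.15 in induced HBL-1. In both genes the lowest uninduced U-H01 array was far above the highest of the other 8 arrays, and those 8 arrays overlapped each other whatever their line. In bulk RNA, fewer cells with a transcript and less of it per cell cannot be told apart.

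HOXD13, the most 5′ gene of the cluster, lay at 7.76, 7.85, 7.67 and 7.49 in uninduced U-H01, at 5.71, 5.83, 5.62 and 5.65 in U-H01 labelled induced, at 5.69 and 5.63 in uninduced and at 5.94 and 5.72 in induced HBL-1. HOXD9 lay at 7.14, 7.08, 7.24 and 7.21 in uninduced U-H01, at 6.24, 6.40, 6.45 and 6.30 in U-H01 labelled induced, at 6.39 and 6.19 in uninduced and at 6.27 and 6.19 in induced HBL-1. Both genes split the arrays as HOXD10 and HOXD11 did, but HOXD9 remained above the array median on all 12. HOXD12 broke the run, with levels of 4.14 to 4.32 in uninduced U-H01, 3.80 to 4.16 in U-H01 labelled induced and 3.92 to 4.20 in HBL-1, all far below the median.

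The 3′ HOXD genes varied less. HOXD4 lay at 6.66, 6.55, 6.61 and 7.06 in uninduced U-H01, at 6.32, 6.47, 6.56 and 6.59 in U-H01 labelled induced, at 6.51 and 6.26 in uninduced and at 6.54 and 6.27 in induced HBL-1. HOXD1 lay between 6.11 and 6.35 in uninduced U-H01, between 6.22 and 6.41 in U-H01 labelled induced, at 6.35 and 6.28 in uninduced and at 6.43 and 6.31 in induced HBL-1. All groups overlapped for HOXD1, and for HOXD4 the U-H01 groups overlapped while uninduced U-H01 lay just above HBL-1. HOXD4 and HOXD3 overlap in the reference annotation, so their signals may not be separate, and HOXD3 lay between 3.79 and 4.26 over the 12 arrays. HOXD8 lay between 4.51 and 5.06.

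In the HOXB cluster, HOXB9 and HOXB7 had the widest ranges. HOXB9, a gene of trunk patterning, lay at 7.47 and 7.54 in uninduced B1 and 6.75 and 6.88 in uninduced B2, at 5.64, 5.87, 5.52 and 5.75 in U-H01 labelled induced, at 5.82 and 5.79 in uninduced and at 5.66 and 5.73 in induced HBL-1. HOXB7, known for its expression in several tumour types, lay at 7.12, 7.26, 7.01 and 7.15 in uninduced U-H01, at 5.74, 5.45, 5.73 and 5.79 in U-H01 labelled induced, at 6.68 and 6.72 in uninduced and at 6.65 and 6.50 in induced HBL-1. HOXB7 therefore had 3 separate levels, with HBL-1 between the U-H01 groups, whereas for HOXB9 the HBL-1 arrays lay within the range of U-H01 labelled induced.

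HOXB4, a regulator of blood stem cell expansion, lay between 6.34 and 6.53 in uninduced U-H01, between 6.51 and 6.67 in U-H01 labelled induced, at 6.37 and 6.73 in uninduced and at 6.54 and 6.62 in induced HBL-1, and the groups overlapped except for induced HBL-1, which was just above uninduced U-H01. HOXB3, also active in blood progenitors, lay at 5.54, 5.33, 5.13 and 5.45 in uninduced U-H01, at 5.87, 5.55, 5.96 and 6.04 in U-H01 labelled induced, at 5.34 and 5.15 in uninduced and at 5.37 and 5.26 in induced HBL-1. HOXB1 lay between 5.61 and 5.87 in uninduced U-H01, between 5.62 and 6.08 in U-H01 labelled induced, at 5.85 and 5.95 in uninduced and at 5.995 and 5.955 in induced HBL-1. The HOXB1 groups overlapped except for induced HBL-1, which was above both uninduced groups, and for HOXB3 the lowest array of U-H01 labelled induced was just above the highest of the others. The remaining HOXB genes were low on all 12 arrays, HOXB5 from 3.98 to 4.33, HOXB6 from 3.95 to 4.97, HOXB8 from 4.81 to 5.47 and HOXB13 from 4.79 to 5.29.

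In the HOXC cluster, HOXC5 alone changed its place relative to the median. It lay at 6.13, 6.14, 6.06 and 6.20 in uninduced U-H01, at 5.088, 5.002, 5.199 and 4.824 in U-H01 labelled induced, at 4.53 and 4.60 in uninduced and at 4.12 and 4.65 in induced HBL-1. All 8 U-H01 arrays were above all 4 HBL-1 arrays. HOXC12 lay between 5.75 and 6.23 on the 12 arrays and in every group overlapped the others. HOXC9, which acts in motor neuron patterning, lay at 4.47, 4.50, 4.41 and 4.70 in uninduced U-H01 and at 5.24, 5.26, 5.14 and 4.90 in U-H01 labelled induced, and between 4.60 and 4.73 in HBL-1. HOXC8 lay between 5.03 and 5.16 in uninduced U-H01, between 5.27 and 5.79 in U-H01 labelled induced and between 4.91 and 5.19 in HBL-1. For both HOXC8 and HOXC9, the 4 arrays of U-H01 labelled induced lay above the other 8. HOXC10 (4.23 to 4.77), HOXC11 (4.53 to 5.14) and HOXC13 (4.95 to 5.36) were low throughout, as was HOXA2 (3.83 to 4.35).

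**Figure D2:**
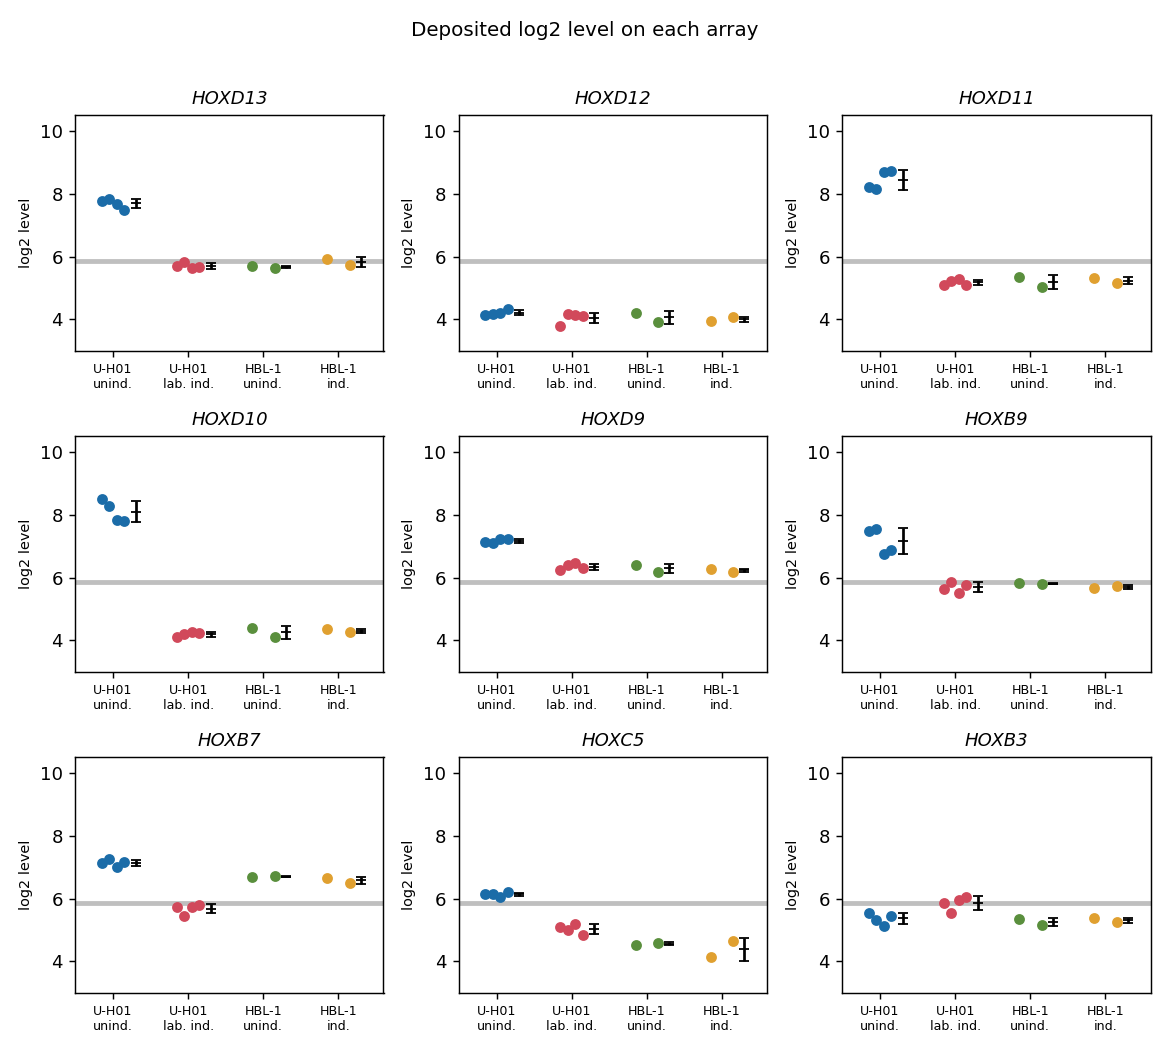
Deposited log2 level of 9 HOX genes on each array (points, by group; unind., uninduced; lab. ind., labelled induced; ind., induced), with the group mean and SD as black bars and the range of the 12 array medians as the grey band. The 4 uninduced U-H01 arrays of HOXD10 sit between 7.80 and 8.49 and all other arrays between 4.09 and 4.40, while HOXD12 lies near 4 in every group.

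The first comparison set U-H01 labelled induced against uninduced U-H01, the contrast of the study in the Hodgkin line. HOX genes of the 5′ HOXD cluster were lower in the arrays labelled induced, HOXD10 with a difference of -3.91 ± 0.13 (adjusted p = 6.01e-11), HOXD11 of -3.27 ± 0.11 (adjusted p = 7.87e-11) and HOXD13 of -1.99 ± 0.08 (adjusted p = 5.36e-10) on the log2 scale. The arrays labelled induced lay below the array median in all 3 genes, and these values carry no detection call, so a fold may be understated. HOXB9 (-1.46 ± 0.11), HOXB7 (-1.46 ± 0.10), HOXC5 (-1.10 ± 0.10) and HOXD9 (-0.82 ± 0.08) were lower as well. HOXC9 was higher by 0.62 ± 0.10, HOXB3 by 0.49 ± 0.12 and HOXC8 by 0.44 ± 0.11. Each of these 10 genes passed at an adjusted p of 0.00436 or less in limma. These 10 were the largest called differences, and the arrays of the U-H01 groups did not overlap in any of them. The share of all genes without such overlap was not taken, so this says nothing particular about HOX genes. Without overlap, all 4 pairs of arrays from 1 population and time point had to differ in the same direction, which adds no separate support.

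In all, 13 of the 27 HOX genes passed in this comparison, 3 higher and 10 lower, against 45.8% of all 18417 genes, of which 22.4% were higher and 23.5% lower. The 48.1% of HOX genes is near that background, so the count itself is not a result about the HOX genes. The median difference over the 27 was -0.09, against 0.03 over all genes, and 6 of the 27 differed by more than 2-fold, against 13% of all genes. The calls of HOXB6, HOXC11 and HOXD3, at -0.36, -0.29 and -0.25, were lost in 9, 10 and 5 of the 12 fits with 1 array left out, and the values moved to -0.20 for HOXB6 without uninduced replicate 1 and to -0.19 for HOXC11 without labelled induced replicate 3. The markers named above differed between the same groups, as did the identity check, and their part in the HOX differences was not tested.

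In HBL-1, none of the 27 HOX genes passed between induced and uninduced arrays. The count was 0 in limma, against 0.608% of all genes called. At an unadjusted p under 0.05 it was also 0, against 1807 of all 18417 genes. The HOX genes that differed most in U-H01 had 95% intervals around 0, HOXD10 at 0.05 (-0.34 to 0.44), HOXD11 at 0.03 (-0.30 to 0.36), HOXD13 at 0.17 (-0.08 to 0.42) and HOXB9 at -0.11 (-0.45 to 0.24). Over all 27 genes these intervals ran from -0.49 to 0.48, so that a 2-fold change of any deposited value lies outside its interval. Some genes were low in uninduced HBL-1, such as HOXB2 at 3.505 and HOXD10 at 4.26, where array lower quartiles were 4.18 to 4.28. For genes that low, a fall in transcript may not show in these values.

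The difference between both induction contrasts was tested directly. It passed for 8 of the 27 genes, 1 higher and 7 lower, against 32.5% of all genes, 15.5% higher and 17% lower. The values were HOXD10 at -3.96 ± 0.22, HOXD11 at -3.30 ± 0.19, HOXD13 at -2.16 ± 0.14, HOXB9 at -1.36 ± 0.19, HOXB7 at -1.33 ± 0.17, HOXC5 at -0.93 ± 0.17, HOXD9 at -0.76 ± 0.14 and HOXC9 at 0.67 ± 0.17. The call of HOXC9 was lost without replicate 2 of either HBL-1 group, with an adjusted p of 0.1 in limma. HOXB3 and HOXC8, which passed within U-H01, did not pass here, with differences of 0.42 ± 0.21 (adjusted p = 0.151) and 0.47 ± 0.18 (adjusted p = 0.0736, limma).

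The lines were compared first among uninduced arrays. Uninduced U-H01 had higher levels than uninduced HBL-1 for 9 of the 27 HOX genes and a lower level for none that passed, against 42.9% of all genes called, 20.8% higher and 22.1% lower. HOXD10 was higher by 3.84 ± 0.15, HOXD11 by 3.25 ± 0.13, HOXD13 by 2.03 ± 0.10, HOXC5 by 1.57 ± 0.12, HOXB9 by 1.36 ± 0.14 and HOXD9 by 0.88 ± 0.10, each with an adjusted p of 8.40e-06 or less in limma. HOXB7 (0.43 ± 0.12), HOXD4 (0.33 ± 0.11) and HOXA2 (0.32 ± 0.10) passed as well, but each of these 3 calls was lost without either uninduced HBL-1 array, that of HOXD4 also without uninduced U-H01 replicate 1 or 4 and that of HOXA2 without replicate 3. The count was again 9 without the 4 U-H01 arrays labelled induced, a fit added after seeing the data. This comparison and the U-H01 induction contrast share the uninduced U-H01 arrays, so their values are not independent.

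Among arrays with doxycycline, U-H01 labelled induced and induced HBL-1 differed in few HOX genes. Of the 27, 4 were higher and 1 lower, against 38.6% of all genes called, 18% higher and 20.6% lower. HOXB7 was lower in U-H01 labelled induced (-0.90 ± 0.12, adjusted p = 4.92e-05), and HOXC5 (0.64 ± 0.12), HOXB3 (0.54 ± 0.15), HOXC8 (0.49 ± 0.13) and HOXC9 (0.49 ± 0.12) were higher, with adjusted p of 0.00952 or less in limma. None of the 27 differed by more than 2-fold. HOXD10 at -0.11 (95% interval -0.45 to 0.22), HOXD11 at -0.05 (-0.34 to 0.24) and HOXD13 at -0.12 (-0.34 to 0.09) did not pass, and their intervals leave out the differences seen between uninduced arrays. Without induced HBL-1 replicate 1 there was 1 call, that of HOXB7, with HOXC5 at 0.42 and HOXC8 at 0.24, and without induced replicate 2 there were 3.

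**Figure D3:**
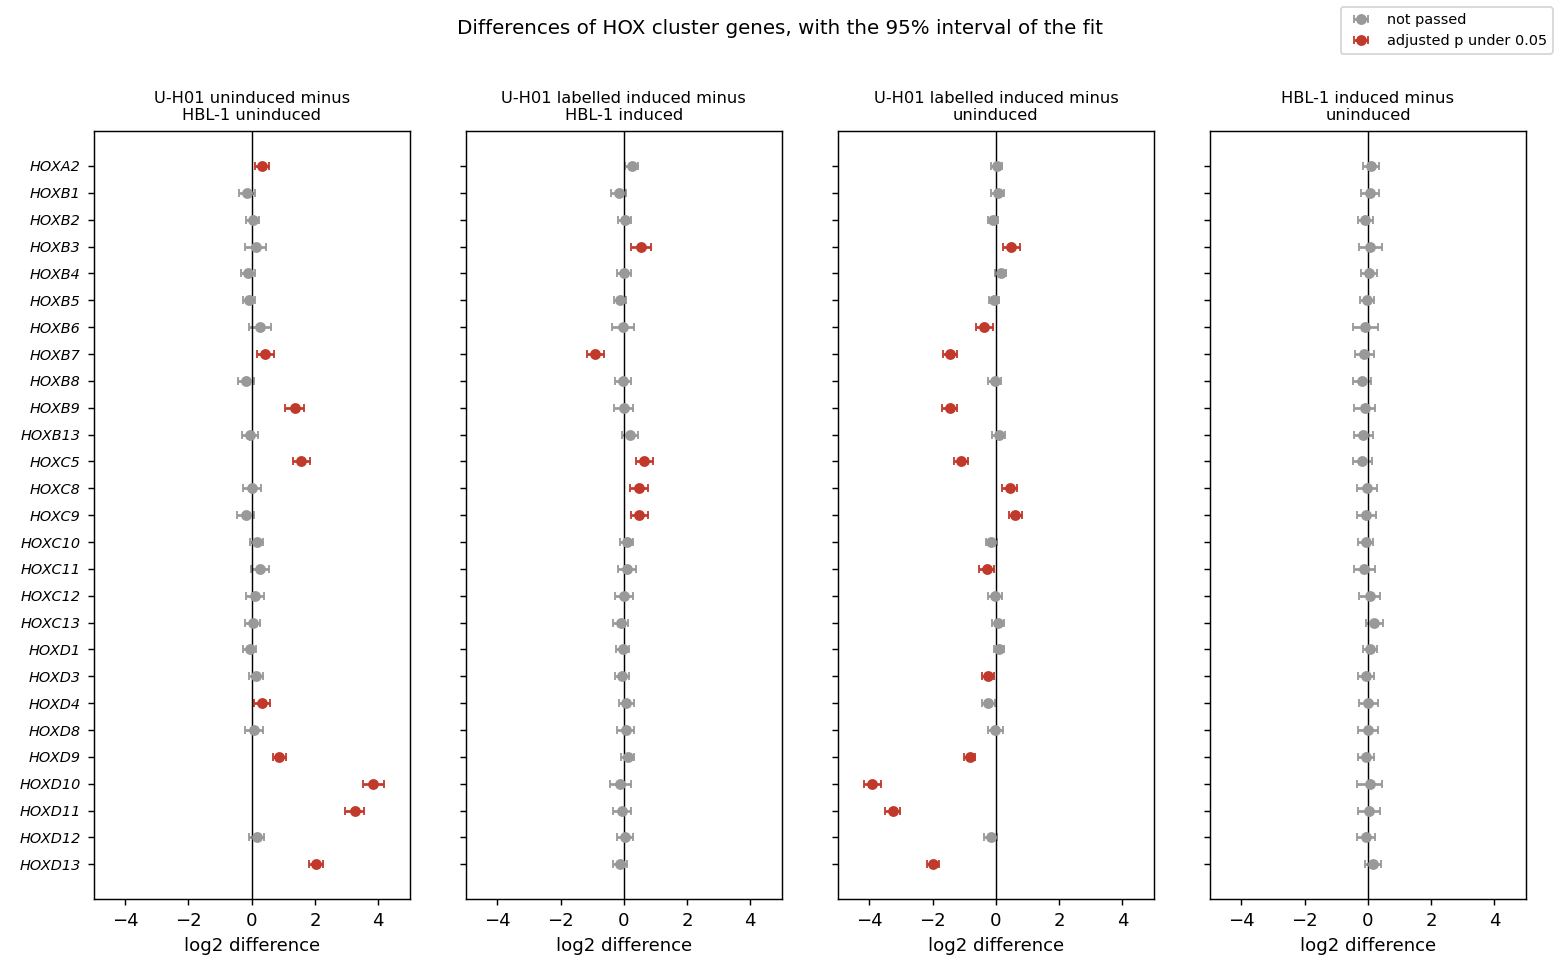
Log2 differences of the 27 HOX genes (points) with the 95% interval of the fit (bars) in 4 comparisons, red where the adjusted p was under 0.05. HOXD10, HOXD11 and HOXD13 lie far to the right in the comparison of uninduced lines and far to the left in U-H01 labelled induced against uninduced, and no gene is red in HBL-1 induced against uninduced.

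The populations B1 and B2 of U-H01 were also taken one at a time. HOXD10 differed by -4.24 in B1 and -3.57 in B2, HOXD11 by -3.01 and -3.52, HOXD13 by -2.04 and -1.95, HOXB9 by -1.75 and -1.18, HOXB7 by -1.59 and -1.32, HOXC5 by -1.09 and -1.12, and HOXD9 by -0.79 and -0.85. HOXC9 differed by 0.77 and 0.47 and HOXC8 by 0.44 in both, whereas HOXB3 differed by 0.27 in B1, where it did not pass (adjusted p = 0.165), and by 0.71 in B2 (adjusted p = 0.00159, limma). The standard errors of these values were 0.11 to 0.15. The induction difference did not pass between B1 and B2 for any of the 27 genes in limma, against 0.608% of all genes called. At an unadjusted p under 0.05 there were 3 of the 27, against 2124 of all 18417 genes.

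The uninduced arrays of B1 and B2 differed in 3 HOX genes, 1 higher and 2 lower in B2, against 3.44% of all genes, 0.874% higher and 2.57% lower. HOXB9 (-0.69 ± 0.11, adjusted p = 0.00579) and HOXD10 (-0.57 ± 0.11, adjusted p = 0.0236) were lower, whereas HOXD11, which neighbours HOXD10, was higher by 0.54 ± 0.11 (adjusted p = 0.0254, limma). On the arrays, both B1 values of HOXD10 were above both B2 values and both B1 values of HOXD11 below both B2 values. These calls were lost on leaving out single uninduced arrays: 0 of the 3 passed without replicate 1, 3 or 4 and 1 without replicate 2. Between the arrays labelled induced, 0 of the 27 passed in limma, against 0.109% of all genes called. At an unadjusted p under 0.05 there were also 0, against 1558 of all 18417 genes.

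The list named TALE cofactors holds PBX, MEIS and PKNOX genes, partners of HOX proteins on DNA, and also TGIF1 and TGIF2 of the same homeodomain class. Of its 11 genes, 9 were measured on the array. Between U-H01 labelled induced and uninduced U-H01, 3 were higher and 2 lower, a share of 55.6% against 45.8% of all genes. MEIS1, which acts with HOX proteins in blood stem cells and leukaemia, lay at 7.48, 7.41, 7.51 and 7.48 in uninduced U-H01 and at 3.84, 3.85, 3.82 and 3.81 in U-H01 labelled induced, and between 3.88 and 3.99 in HBL-1, a difference of -3.64 ± 0.07 (adjusted p = 8.65e-13) within U-H01. MEIS2 was higher in the arrays labelled induced by 1.39 ± 0.08 and PKNOX1 by 1.01 ± 0.09, and PBX3 was lower (-0.70 ± 0.08). MEIS1 thus split the 12 arrays in the way HOXD10 and HOXD11 did, with uninduced U-H01 high and the other 8 arrays low.

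Between the uninduced lines, MEIS1 was higher in U-H01 by 3.56 ± 0.09 and PBX3 by 0.42 ± 0.10, while TGIF1, a repressor of the same homeodomain class, was lower (-3.64 ± 0.18), as was PKNOX1 (-0.67 ± 0.11). TGIF1 lay between 5.01 and 5.83 on all 8 U-H01 arrays and at 9.12, 9.23, 9.72 and 9.82 in HBL-1, so that it separated the lines and not the U-H01 groups. Between U-H01 labelled induced and induced HBL-1, MEIS1 differed by -0.10 ± 0.09 (adjusted p = 0.437) and TGIF1 by -4.40 ± 0.18, and MEIS2 and PBX4 were higher by 1.38 ± 0.10 and 1.52 ± 0.21. No TALE gene passed between the HBL-1 groups in limma, against 0.608% of all genes called. Of the 9 TALE genes, 2 had an unadjusted p under 0.05, against 1807 of all 18417 genes.

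**Figure D4:**
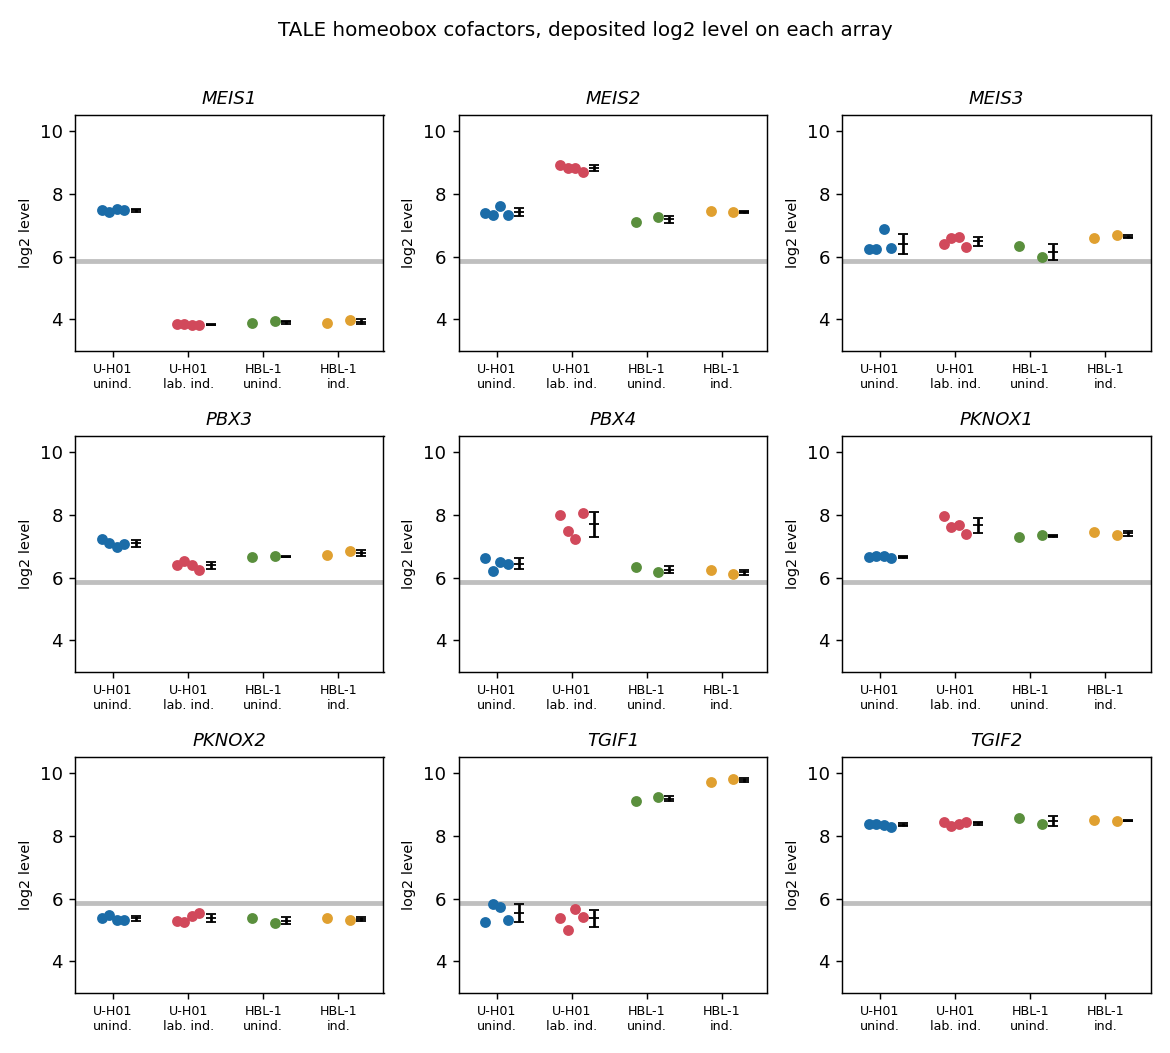
Deposited log2 level of the 9 measured genes of the TALE cofactor list on each array (points, by group; unind., uninduced; lab. ind., labelled induced; ind., induced). Black bars show the group mean and SD, and the grey band the range of the 12 array medians. MEIS1 lies between 7.41 and 7.51 in uninduced U-H01 and between 3.81 and 3.99 on the other arrays, and TGIF1 separates the 8 U-H01 arrays from the 4 HBL-1 arrays.

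Among the regulators that keep clusters active, 19 genes of the MLL and trithorax side were measured. In U-H01 labelled induced, 10 were higher and 5 lower than in uninduced U-H01. This was a share of 78.9% against 45.8% of all genes, 22.4% higher and 23.5% lower. The shares in this paragraph were not matched for level to all genes, and genes such as KMT2A and DPY30 lay well above the array median. Whether 78.9% is particular to these regulators was not tested. MLLT3 (AF9), a subunit that reads acylated histones, was higher by 2.17 ± 0.08, AFF1 by 1.47 ± 0.09, ASH2L, a core subunit of the methyltransferase complexes, by 1.33 ± 0.07 and DOT1L, a histone methyltransferase, by 1.12 ± 0.08. MLLT3 was also higher in U-H01 than in HBL-1, by 2.99 ± 0.10 among uninduced arrays and by 5.10 ± 0.10 among arrays with doxycycline. Of 24 measured Polycomb genes, 5 were higher and 6 lower in U-H01 labelled induced, a share of 45.8% that equals that of all genes. RING1, a ubiquitin ligase of Polycomb complexes, was lower (-1.52 ± 0.08), as was PCGF2 (-0.84 ± 0.09), and SCMH1 was higher by 1.78 ± 0.12 and CBX2 by 0.95 ± 0.09. Between the uninduced lines 7 of the 19 were higher and 5 lower in U-H01, and 9 of the 24 Polycomb genes higher and 6 lower, shares of 63.2% and 62.5% against 42.9% of all genes, with PHF19 at 2.20 ± 0.16 and RING1 at 1.35 ± 0.10. In HBL-1 none of either list passed between induced and uninduced arrays in limma, against 0.608% of all genes called. At an unadjusted p under 0.05 there were 4 of the 19 and 5 of the 24, against 1807 of all 18417 genes.

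Other genes in and around the clusters were followed too. Of 7 measured from a list of 29 noncoding and small genes within the clusters, 3 were higher in U-H01 labelled induced and none lower, a share of 42.9% against 45.8% of all genes: MIR196A2 by 0.29 ± 0.08, PRAC1 by 0.25 ± 0.09 and MIR196A1 by 0.23 ± 0.08. None of the 7 passed between the uninduced lines in limma, against 42.9% of all genes called. At an unadjusted p under 0.05 there were also 0, against 8866 of all 18417 genes. Of 14 neighbouring and flanking genes, 3 were higher and 5 lower within U-H01, a share of 57.1%, with SNX10 at -0.93 ± 0.10, CALCOCO1 at -0.90 ± 0.12 and TTLL6 at -0.79 ± 0.15. Of 44 other homeobox genes of the ANTP class, the class HOX genes belong to, 1 was higher and 4 lower within U-H01, a share of 11.4% against 45.8% of all genes, with DLX1 at -0.71 ± 0.11 and HHEX, a regulator of early B-cell development, at -0.79 ± 0.14. The share of 11.4% was likewise not matched for level to all genes. HHEX was also lower in uninduced U-H01 than in uninduced HBL-1 (-2.05 ± 0.17), and DLX1 was higher by 0.69 ± 0.13.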

How the data were processed

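The values are log2 levels as the authors deposited them. The submitters' processing notes name RMA and Partek, without versions or an annotation build (not given in the sources used here). RMA corrects background, quantile-normalizes and summarises probe sets, which can hide a shift of all genes and compresses folds near background. The deposited log2 values ran from 2.07 to 14.3 and array medians from 5.79 to 5.88. Of 33297 probe sets, 19460 had 1 symbol, 1754 several and 12083 none. A gene with several probe sets, 769 in all, was represented by the one with the highest mean over the 12 arrays.

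One linear model over the 12 arrays (limma 3.58.1, R 4.3.3, lmFit and eBayes) was fitted on 18417 genes. It held population, time point within each line and induction within each line, 7 terms with 5 residual degrees of freedom. To compare B1 with B2, induction was fitted per population, with 8 terms and 4 degrees of freedom. Tests were two-sided, adjusted by Benjamini-Hochberg over all genes, with calls at an adjusted p under 0.05, and intervals cover 95%. The model was tested on simulated data. Figures used matplotlib 3.10.9 under Python 3.11.15. The number of arrays limits the precision. The labels name no separate cultures for the arrays of a group, so p-values speak only for the spread among these arrays, part of which can be technical.

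Per the labels' protocols, induced and uninduced arrays of a population and time point come from the same transduced cells. Deviations of such pairs from their group means correlated at 0.14 and -0.03 in B1, 0.10 and 0.03 in B2 and 0.10 in HBL-1, and a fit with the pair as a block was an alternative. No 2 arrays held identical values (0 pairs). The 27 members and all lists were chosen with earlier results of these data known. The comparisons of B1 with B2 within uninduced arrays and within arrays labelled induced were added after their values were seen. By the rule for named genes, every HOX gene has its level, HOX genes above the median in some or all groups have every array, the 10 largest called HOX differences have their size, and of each other list at most 4 genes with the smallest p are named. Names and promoters came from RefSeq tables of GRCh38.p14, in which all 27 members matched. The alternatives tried were other scalings, level filters, probe set choices, variance options, terms, array subsets and single arrays left out.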

Additional observations from a re-analysis of the deposited data

Results flagged for a closer look

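In 54 groups of 4 values, formed by the 27 HOX genes in each U-H01 group, 2 held an array whose gap to its nearest neighbour, divided by the range of the group, was above Dixon's critical value at 95%. Chance gives about 1 such group in 20. HOXB7 on replicate 2 of U-H01 labelled induced, at 5.45 against 5.73 to 5.79 on the others, had a ratio of 0.843. HOXD8 on replicate 3 of uninduced U-H01, at 4.54 against 4.92 to 4.99, had a ratio of 0.847.

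The induction difference of U-H01 minus that of HBL-1 passed for 8 HOX genes in limma. It was -3.96 for HOXD10, -3.30 for HOXD11, -2.16 for HOXD13, -1.36 for HOXB9, -1.33 for HOXB7, -0.93 for HOXC5, -0.76 for HOXD9 and 0.67 for HOXC9. The 4 U-H01 arrays that did not match the others in the identity check enter each of these values, and their part in it was not tested.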

How the results depend on the processing

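No result reversed under the 23 alternatives (0 in all), and 24 of 38 HOX gene results kept their call in each of the 19 to 21 alternatives run for them. The calls that were lost are those of HOXB6, HOXC11 and HOXD3 within U-H01, of HOXA2, HOXB7 and HOXD4 between uninduced lines, of HOXB3, HOXC5, HOXC8 and HOXC9 between arrays with doxycycline, of HOXC9 between the inductions and the 3 between uninduced B1 and B2. With genes above the median level only, fewer genes are tested, and members such as HOXD10, HOXB9 and HOXC5 were left out. HOXB7, HOXD9, HOXD11 and HOXD13 stayed in and kept their calls within U-H01. Counts of HOX genes called fell from 13 to 5 within U-H01 and from 9 to 5 between uninduced lines, in part because members were no longer tested. They fell from 5 to 1 between arrays with doxycycline, from 8 to 4 for the difference of inductions and from 3 to 1 between uninduced B1 and B2. That last count was also 1 over all probe sets of the table. Above the upper quartile in place of the median were 2, 0, 0 and 0 HOX genes in uninduced U-H01, U-H01 labelled induced, uninduced and induced HBL-1, and above the median over probe sets with 1 symbol 8, 4, 5 and 4, in place of 11, 6, 7 and 8.

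Leaving out 1 array gave 10 to 13 HOX calls within U-H01, 6 to 10 between uninduced lines, 1 to 5 between arrays with doxycycline, 8 to 9 between the inductions and 0 to 3 between uninduced B1 and B2. The 5 NF-kB subunit genes gave 1 to 3 calls within U-H01 and 1 to 3 between arrays with doxycycline. The main fit called 45.8% and 38.6% of all genes in these comparisons. The other lists together gave 27 to 43 calls between uninduced lines, 20 to 40 between arrays with doxycycline and 0 to 1 in HBL-1. The main fit called 42.9%, 38.6% and 0.608% of all genes there. These lists hold 9, 19, 24, 7, 44 and 14 measured genes, some of them shared. With HBL-1 arrays fitted alone, 3 genes of those lists and 1 subunit gene, in place of 0 and 0, passed in HBL-1, and 1 subunit gene, REL, passed without the U-H01 arrays labelled induced, an alternative chosen after seeing the data. With the replicate block the counts of HOX calls were 13 within U-H01, 0 in HBL-1, 9 and 5 between the lines and 8 between the inductions, and it changed no HOX call. A fit on the compared lines only is the main fit for comparisons of lines. The HBL-1 groups of 2 arrays limit every comparison that uses them.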
